A study of Mus musculus with 14 samples.

Results

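The genes described here encode voltage-gated sodium channels, voltage-gated calcium channels, the hyperpolarization-activated HCN channels and the sodium leak channel NALCN, with their auxiliary subunits. They were taken from the count table by symbol: 44 of its 43346 genes carry a symbol of the series Scn (alpha and beta subunits), Cacna1, Cacna2d, Cacnb, Cacng or Hcn, or the symbol Nalcn. The 44 comprised 9 sodium channel alpha subunits, 4 sodium channel beta subunits, 10 calcium channel alpha1 subunits, 4 alpha2delta subunits, 4 calcium channel beta subunits, 8 members of the gamma family, 4 HCN channels and Nalcn. The table lists the gene of the brain sodium channel Nav1.2 under its older symbol Scn2a1, which the choice by symbol did not take, and its values are given separately.

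RNA-seq had been run on brain tissue of 14 female mice, aged 23 months, of the strain labelled C57BL/6;SJL-Tg, in a study of CP2, a tricyclic pyrone that inhibits complex I of the mitochondrial respiratory chain. The groups were 4 non-transgenic (NTG) wild type littermates, 5 APP/PS1 mice (genotype APP/PS1 +/+) and 5 CP2-treated APP/PS1 mice. APP/PS1 mice carry mutant human APP and PS1 transgenes and deposit amyloid; the promoters that drive the transgenes are not given in the sources used here. CP2 was given at 25 mg/kg/day in drinking water that held 0.1% PEG from 9 months of age, that is for 14 months, and the other groups, labelled as non-treated, drank the PEG vehicle per the protocol. NTG mice given CP2 are not analysed here, so an effect of CP2 without the transgenes cannot be given. Each library came from a brain slice with hippocampus and cortex, and each mouse is named below by the number in its label.

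Voltage-gated sodium channels open on depolarization and carry the upstroke of the action potential, and their beta subunits set gating and anchor the channel at the membrane. Voltage-gated calcium channels turn the depolarization into calcium entry, which triggers transmitter release at terminals and shapes firing in dendrites. HCN channels open on hyperpolarization and set resting potential and rhythm, and NALCN carries a background sodium leak.

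Library totals ran from 70548781 to 106235625 counts, so that 1 count was worth 0.00918 to 0.0149 CPM (counts-per-million, scaled by TMM in the levels below), and the channel genes took 0.393 to 0.482% of all counts. Markers of cortex (summed CPM 369 to 587), hippocampal CA fields (433 to 581) and dentate gyrus (138 to 211) were found in all 14 libraries. Markers of choroid plexus ranged from 25.2 to 1356 CPM. APP/PS1 mouse 16 stood apart: it had the highest level of all 9 striatal markers in the table, with a sum of 2735 CPM against 242 to 449 CPM in the other 13 mice, and the lowest sum of the 10 thalamic markers, 198 CPM against 414 to 736 CPM. Its dentate sum of 174 CPM was mostly Pdzd2 (142 CPM, the highest of all mice). Prox1, Dsp, C1ql2, Lct and Tdo2 were the lowest of all mice in it. Its CA sum of 467 CPM held Wfs1 at 229 CPM, the highest of all mice, while Fibcd1, Spink8, Nrip3 and Cpne7 were the lowest. Trpc6, Ociad2 and Bok lay within the range of the other mice. Channel gene results that rest on mouse 16 are given with and without it.

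Among the channel genes, the level per length, taken from the RPKM (reads scaled by gene length and library size) that the authors deposited, was high for Cacng7, with a median over the 14 mice of 50.0 RPKM and a range of 45.4 to 52.7 RPKM. Scn2b had a median of 46.5 RPKM (42.9 to 55.7), Hcn2 of 40.2 RPKM (33.2 to 50.4) and Cacnb3 of 38.6 RPKM (31.1 to 45.8). These auxiliary subunits and Hcn2 lay by their medians above every pore-forming sodium and calcium channel subunit among the channel genes.

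**Figure D1:**
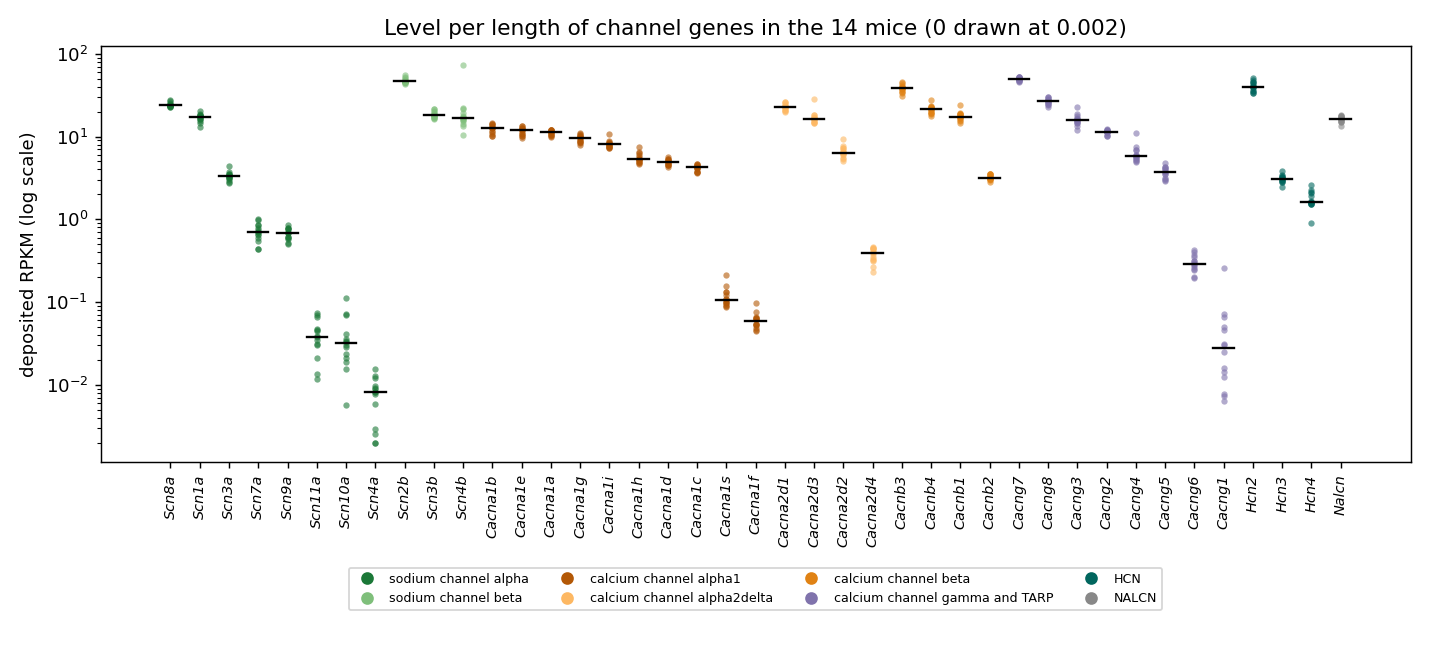
Deposited RPKM on a log scale for 41 of the 44 channel genes, each point 1 of the 14 mice and each bar the median, with genes grouped by subfamily and ordered by median. Cacng7 lies at a median of 50.0 RPKM, and the 7 genes below the expression filter lie at medians of 0.292 RPKM or less. Values of 0 are drawn at the foot of the axis.

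Of the pore-forming sodium channel subunits, Scn8a (Nav1.6), the main channel of mature axon initial segments and nodes, was highest at a median of 24.001 RPKM (22.5 to 28.0). Scn1a (Nav1.1), prominent in fast-spiking interneurons, followed at 17.4 RPKM (12.9 to 20.1) and Scn3a (Nav1.3), the embryonic form, at 3.31 RPKM (2.73 to 4.40), and the ranges of these genes did not overlap. Scn7a and Scn9a, with medians of 0.709 and 0.683 RPKM, overlapped in range. Scn2a1 (Nav1.2), which the choice by symbol did not take, lay at 23.3 to 33.0 RPKM. It overlapped Scn8a in range and was above it in most mice. Among the sodium channel beta subunits, Scn2b lay above Scn3b and Scn4b by median and clear of Scn3b in range, and Scn3b and Scn4b overlapped, at medians of 18.1 and 16.7 RPKM.

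The calcium channel alpha1 subunits were closer together. Cacna1b (Cav2.2, N-type), Cacna1e (Cav2.3, R-type) and Cacna1a (Cav2.1, P/Q-type) had medians of 12.6, 11.9 and 11.3 RPKM with overlapping ranges. Cacna1g (Cav3.1, T-type) followed at 9.66 RPKM (7.98 to 11.2), and the other T-type genes Cacna1i and Cacna1h stood at 8.02 and 5.39 RPKM. The L-type genes Cacna1d and Cacna1c had medians of 4.90 and 4.23 RPKM.

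Among the alpha2delta subunits, which carry channels to the surface and bind gabapentin in their first 2 forms, Cacna2d1 led at 22.8 RPKM (19.6 to 26.2), ahead of Cacna2d3 at 16.5 RPKM, Cacna2d2 at 6.39 RPKM and Cacna2d4 at 0.390 RPKM. Cacnb3 led the cytoplasmic beta subunits, followed by Cacnb4 at 21.4 RPKM, Cacnb1 at 17.5 RPKM and Cacnb2 at 3.19 RPKM. Cacng7, Cacng8 (26.9 RPKM) and Cacng3 (16.01 RPKM) led the gamma family, most of whose brain members are better known as TARPs, partners of AMPA receptors, ahead of Cacng2 (11.4 RPKM), Cacng4 (5.83 RPKM) and Cacng5 (3.71 RPKM). Hcn2 stood above Hcn3 (3.11 RPKM) and Hcn4 (1.61 RPKM), and the ranges of the last pair overlapped. Nalcn had a median of 16.3 RPKM (13.6 to 18.02).

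A gene entered a test if all mice of either group compared had a CPM above 1. This held for 37 of the 44 channel genes in each comparison. The 7 others are mainly known from muscle, retina or sensory neurons. Cacna1s lay between 0.681 and 1.68 CPM, Cacna1f between 0.503 and 1.03 CPM, Cacng6 between 0.470 and 0.997 CPM and Cacng1 between 0.00918 and 0.389 CPM. Scn10a lay between 0.0453 and 0.817 CPM, Scn11a between 0.0893 and 0.510 CPM, and Scn4a between 0 and 0.129 CPM. Of the exon bases of Cacna1s, 20% are shared with an antisense gene, and the library kit does not mark strand.

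The first comparison, of APP/PS1 with NTG mice, addressed what the transgenes did at this age. Cacna1b was higher in APP/PS1 mice and Cacng7 was lower. They were among the 3 of the 37 genes that passed the threshold of 0.05 on the p adjusted over all 16417 genes tested, a threshold that 5.68% of all genes passed. At an unadjusted p under 0.05, the threshold of the study, there were 8 genes, 3 higher and 5 lower, or 21.6% of the 37, beside 18.7% of all genes (10.6% higher and 8.05% lower). The share of channel genes called was thus near that of all genes. The groups did not overlap for 4 channel genes, among them Cacna1b, Cacng7 and Cacng2, beside 9.96% of all genes. In either direction and regardless of the test, 16 channel genes were higher and 21 lower, with a median log2 fold change of -0.01, beside a median of -0.00421 over all genes. Of all genes tested, 51.2% were lower in APP/PS1 mice. Without APP/PS1 mouse 16 the same 3 genes passed on the adjusted p, and 10 had an unadjusted p under 0.05, beside 8.92% and 22.1% of all genes in that fit, with Cacna1a, Cacnb4, Scn2b and Scn7a gained and Cacna2d4 among those lost. Leaving out any other mouse gave 0 or 1 adjusted call, beside 3.51 to 4.72% of all genes.

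Treatment of APP/PS1 mice with CP2 was the second comparison. The channel genes that differed were higher with CP2: Cacna1g, Hcn4 and Cacng2. By edgeR's adjusted p none of the 37 passed, and 0.00609% of all genes, that is 1 of 16407, did. By unadjusted p there were 3, all higher, or 8.11% of the 37, beside 6.55% of all genes (2.88% higher and 3.66% lower). DESeq2 called 1 channel gene by adjusted p, Cacna1g, beside 0.140% of all genes, and limma-voom none, beside 0.00609%. Groups did not overlap for Cacna1g alone, beside 1.18% of all genes. In either direction, 27 channel genes were higher with CP2 and 10 lower, with a median log2 fold change of 0.04 beside -0.00596 over all genes. Of all genes tested, 52.5% were lower with CP2.

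Mouse 16 is in the untreated arm of that comparison, and without it 9 channel genes had an unadjusted p under 0.05, all of them higher with CP2, beside 9.54% of all genes (4.25% higher). Cacna1g, Hcn4 and Cacng2 were among them, as were Scn2b, Scn3a, Scn8a, Cacng4 and Cacna1h. Without mouse 16 the groups did not overlap for 3 genes, Cacna1g and Scn3a among them. The share of all genes without overlap was not counted for that fit, and leaving out a mouse can only add such genes. None of the 9 had an adjusted p under 0.05 in edgeR, the lowest being 0.237 for Cacna1g. Leaving out APP/PS1 mouse 18 or CP2-treated mouse 22 gave 5 genes in place of 3, beside 6.66% and 8.26% of all genes. Without mouse 22, 1 of the 5, Cacna2d4, was lower with CP2. Leaving out APP/PS1 mouse 17 gave 4 genes, beside 4.76%. Leaving out CP2-treated mouse 21, 23 or 24 gave 2, Cacna1g and Hcn4, beside 3.9 to 6.48%.

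In the third comparison, CP2-treated APP/PS1 mice were set against NTG mice. Scn7a and Cacna1b were higher in CP2-treated APP/PS1 mice and passed on the adjusted p, a threshold that 6.02% of the 16416 genes tested passed. By unadjusted p there were 9 channel genes, 6 higher and 3 lower, or 24.3% of the 37, beside 20.2% of all genes (11.6% higher and 8.59% lower). Scn7a and Cacna1b were also the 2 genes whose groups did not overlap, beside 9.72% of all genes. In either direction, 22 channel genes were higher and 15 lower, with a median log2 fold change of 0.03 beside -0.00154 over all genes. Of all genes tested, 50.6% were lower in CP2-treated APP/PS1 mice. Without NTG mouse 10 the count by unadjusted p was 15, beside 21% of all genes in that fit. The adjusted count was 0 without NTG mice 9 or 10 or CP2-treated mice 22 or 24, beside 3.47 to 4.24% of all genes. The 3 comparisons share mice pairwise, so agreement between them is not independent, and the values of each are given side by side below.

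**Figure D2:**
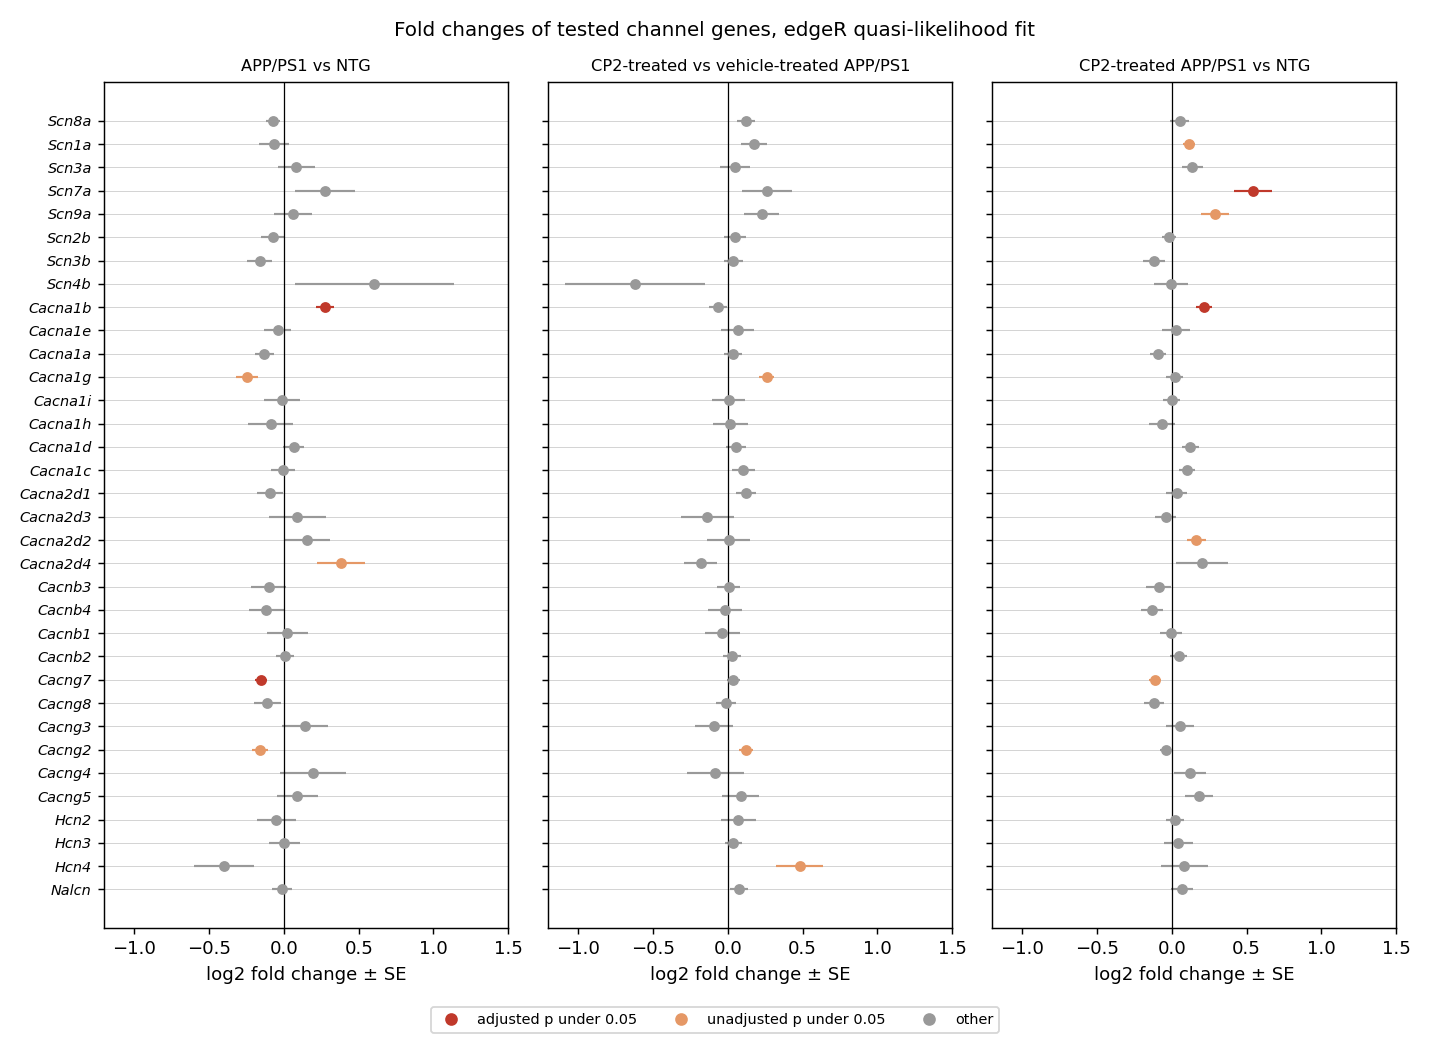
Log2 fold change with its standard error for 34 of the 37 tested channel genes in the 3 comparisons, each point 1 gene. Red marks an adjusted p under 0.05 (2, 0 and 2 of the genes drawn) and orange an unadjusted p under 0.05 only. Most genes lie within 0.2 of 0, and Scn4b has the widest errors in the comparisons that include APP/PS1 mouse 16.

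Among the sodium channel alpha subunits, edgeR called none by unadjusted p with CP2 in the fit of 2 groups, and Scn7a, Scn9a and Scn1a were higher by unadjusted p in CP2-treated APP/PS1 against NTG mice. Scn7a encodes Nax, a channel that senses extracellular sodium rather than voltage and is known from glia and circumventricular organs. Its gene lies at chr2:66673425-66784914 on the minus strand of GRCm38 (mm10), the build of the files. Scn7a stood at 4.01, 6.10, 5.11 and 5.28 CPM in the NTG mice, at 3.88, 8.43, 6.02, 6.62 and 6.04 CPM in the APP/PS1 mice, and the CP2-treated mice at 6.30, 8.43, 7.86, 7.60 and 7.05 CPM. Every CP2-treated APP/PS1 mouse lay above every NTG mouse, while the APP/PS1 mice without CP2 spanned both groups, with mouse 16 lowest. The log2 fold change of CP2-treated APP/PS1 against NTG mice was 0.54 ± 0.13 (SE), with an adjusted p of 0.0295 by edgeR's quasi-likelihood test. It was 0.28 ± 0.20 in APP/PS1 against NTG mice, and 0.40 ± 0.15 there without mouse 16 (adjusted p = 0.145).

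The Scn7a call did not survive every choice. Its adjusted p was 0.117 with all 3 groups in 1 fit, and it ranged from 0.0233 to 0.0799 when 1 mouse was left out, staying under 0.05 without NTG mice 7 or 8 or CP2-treated mice 21 or 25. In the same comparison 4 of the 6 endothelial markers rose on the adjusted p, while Cldn5 and Ocln differed by -0.12 and -0.13 on the log2 scale without being called, and the summed level of the 6 was 152 to 158 CPM in NTG mice and 169 to 192 CPM in APP/PS1 mice given CP2. Other lists moved in this comparison as well. On the adjusted p, 4 of the 6 microglial markers and 2 of the 4 muscle markers tested rose. Of the 6 astrocyte markers, Aqp4 rose (log2 difference 0.50), while Slc1a2 (-0.31) and Gjb6 (-0.32) fell on the adjusted p. The part of any of these lists in the Scn7a result was not tested.

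Scn9a (Nav1.7), best known from sensory neurons, stood at 9.62, 8.45, 9.39 and 10.6 CPM in NTG mice and at 10.5, 11.7, 13.5, 10.4 and 12.2 CPM in APP/PS1 mice given CP2. The groups overlapped, and the log2 difference was 0.29 ± 0.09 with an adjusted p of 0.109. Scn1a stood at 217 to 235 CPM in NTG, 171 to 259 CPM in APP/PS1 and 234 to 253 CPM in APP/PS1 mice given CP2, with a log2 difference of 0.11 ± 0.04 between the last group and NTG (adjusted p = 0.152). The lowest APP/PS1 value of Scn1a was that of mouse 16.

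Scn8a and Scn3a were not called by edgeR with all mice in the fits of 2 groups. Scn8a had an unadjusted p under 0.05 with CP2 by DESeq2, by limma-voom and with all 3 groups in 1 fit, and in APP/PS1 against NTG mice by limma-voom. Scn8a lay at 339 to 371 CPM in NTG, 332 to 354 CPM in APP/PS1 and 333 to 411 CPM in APP/PS1 mice given CP2. Scn2a1, the gene of Nav1.2, lay between 262 and 367 CPM, with log2 fold changes of 0.01, 0.02 and 0.04 in the 3 comparisons.

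The sodium channel beta subunits Scn2b, Scn3b and Scn4b were not called by edgeR with all mice. Limma-voom gave Scn2b and Scn3b an unadjusted p under 0.05 in APP/PS1 against NTG mice. Scn3b, a beta subunit with a noncovalent bond to its channel, changed by -0.16 ± 0.08 in APP/PS1 against NTG mice (adjusted p = 0.348), and Scn2b by -0.07 ± 0.08 (adjusted p = 0.700), or by -0.14 ± 0.05 without mouse 16 (unadjusted p = 0.0236, adjusted p = 0.146). Scn4b encodes beta4, the subunit tied to resurgent current and abundant in striatum. It stood at 136, 99.7, 88.6 and 95.4 CPM in NTG mice, at 436, 75.0, 125, 96.6 and 64.7 CPM in APP/PS1 mice and at 99.8, 103, 119.5, 101 and 99.1 CPM in CP2-treated mice. Mouse 16 alone made the APP/PS1 mean the highest. The log2 fold changes of 0.61 ± 0.53 in APP/PS1 against NTG mice and -0.62 ± 0.47 with CP2 (adjusted p = 0.610 and 0.797) became -0.22 and 0.21 without it.

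Among the calcium channel alpha1 subunits, Cacna1b rose and Cacna1g was lower in APP/PS1 mice, while edgeR called none of the other 6 tested genes with all mice in the fits of 2 groups with the CPM filter. Cacna1a had an unadjusted p under 0.05 in APP/PS1 against NTG mice by limma-voom and with all 3 groups in 1 fit, and Cacna1d in CP2-treated APP/PS1 against NTG mice with upper-quartile scaling and with a minimum of 10 counts. Cacna1b encodes Cav2.2, the N-type channel of presynaptic terminals, which couples calcium entry to transmitter release. Its gene lies at chr2:24603887-24763152 on the minus strand, with 50 exon blocks in GENCODE vM21. The RefSeq entry for its promoter is shown because Cacna1b was the only channel gene that passed on edgeR's adjusted p, with all mice, in both comparisons with NTG mice. The 250 bases before its RefSeq start, chr2:24763153-24763402 on the minus strand of GRCm38.p6, read 5′ to 3′ with matches to the GC box (GGGCGG or CCGCCC) and to the CCAAT box (CCAAT or ATTGG) in capitals.
Cacna1b: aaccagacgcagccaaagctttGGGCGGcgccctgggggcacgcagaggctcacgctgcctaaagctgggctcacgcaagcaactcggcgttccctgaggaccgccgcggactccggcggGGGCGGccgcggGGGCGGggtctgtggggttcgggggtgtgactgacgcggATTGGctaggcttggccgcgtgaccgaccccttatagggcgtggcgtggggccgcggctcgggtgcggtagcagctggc

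The window held 3 GC boxes and 1 CCAAT box, none overlapping another, and its GC content was 72.0%, beside a median of 52.4% over all 32851 RefSeq promoter windows of this length. Of all windows, 32.7% held a GC box and 33.8% a CCAAT box on either strand. RefSeq entries were found for 32 of the 44 channel genes, with 42 start sites, of which 40.5% held a GC box, 23.8% a CCAAT box and 2.38% a TATA box (TATAAA or TTTATA), the last beside 12.4% of all windows. Neither the cAMP response element TGACGTCA nor the E-box CACGTG was in any of the 42, beside 1.55% and 6.02% of all windows. Cacna1g had no entry, and the Scn7a and Cacng2 windows reached into exons and are not shown.

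Cacna1b stood at 124, 132, 136 and 139 CPM in NTG mice, at 172, 162, 145, 153 and 169.9 CPM in APP/PS1 mice and at 168, 154, 141, 149.8 and 156 CPM in APP/PS1 mice given CP2. Every transgenic mouse, with CP2 or without, lay above every NTG mouse in TMM-scaled CPM. In the deposited RPKM, CP2-treated mouse 23 (11.4 RPKM) lay below NTG mouse 10 (11.7 RPKM). The log2 difference was 0.28 ± 0.06 in APP/PS1 against NTG mice, or 21.1% more (adjusted p = 0.0275), and 0.21 ± 0.05 in CP2-treated APP/PS1 against NTG mice (adjusted p = 0.0428). CP2 changed it by -0.07 ± 0.06 (adjusted p = 0.826).

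Mouse 16 had the highest Cacna1b value of all mice, and without it the rise was 0.25 ± 0.06 (adjusted p = 0.0284). Over all omissions of 1 mouse the adjusted p of Cacna1b in APP/PS1 against NTG mice ran from 0.0158 to 0.0884, under 0.05 without APP/PS1 mice 16, 18 or 19 and above it without any of the other 6. In CP2-treated APP/PS1 against NTG mice it stayed under 0.05 only without CP2-treated mouse 23. The direction was the same in every one of these fits.

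Cacna1g encodes Cav3.1, the T-type channel behind low-threshold bursts, which is abundant in thalamic relay neurons. It lies at chr11:94408391-94474198 on the minus strand and stood at 128, 109, 120.4 and 135 CPM in NTG mice, at 97.2, 99.0, 100.3, 109 and 114 CPM in APP/PS1 mice and at 121, 125, 125, 122 and 130.5 CPM in APP/PS1 mice given CP2. All CP2-treated mice lay above all APP/PS1 mice without CP2, and the NTG mice overlapped both. Cacna1g differed by -0.24 ± 0.07 (log2) in APP/PS1 against NTG mice (unadjusted p = 0.00714, adjusted p = 0.0883), 0.26 ± 0.05 with CP2 (unadjusted p = 0.00025, adjusted p = 0.529) and 0.02 in CP2-treated APP/PS1 against NTG mice. The first 2 values share the APP/PS1 mice. In APP/PS1 against NTG mice the adjusted p was between 0.0253 and 0.112 over the other settings.

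With CP2, DESeq2 gave Cacna1g an adjusted p of 0.00224, whereas the adjusted p in the other alternatives ran from 0.455 to 0.713. Leaving out mice in turn, its log2 fold change with CP2 was 0.24 to 0.30 with an unadjusted p of 0.00102 or lower. Thalamic markers moved the same way: of the 10, 4 were higher with CP2 by unadjusted p and none by adjusted p, with a median log2 fold change of 0.55. Their sums were 475 to 736 CPM in NTG, 198 to 552 CPM in APP/PS1 and 487 to 715 CPM in CP2-treated mice. The sum of 198 CPM was that of mouse 16, and the other APP/PS1 mice had sums of 414 to 552 CPM. The median fold change of these markers includes mouse 16, and their fold changes without it are not given. The part of thalamic tissue in the Cacna1g values was not tested.

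Cacna1a, whose product is the main release channel at many central synapses, changed by -0.13 ± 0.06 in APP/PS1 against NTG mice (adjusted p = 0.296). Its values were 151 to 171 CPM in NTG and 137 to 163 CPM in APP/PS1 mice, with overlap. Cacna1e changed by -0.04 ± 0.09. The L-type genes Cacna1c and Cacna1d changed by -0.01 ± 0.08 and 0.06 ± 0.07 in the same comparison.

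With all mice, edgeR called no alpha2delta or cytoplasmic beta subunit by adjusted p. Cacna2d4, a low-level member known from retina, stood at 3.14, 3.87, 2.79 and 4.99 CPM in NTG mice and at 5.25, 4.77, 4.38, 5.15 and 4.51 CPM in APP/PS1 mice. The groups overlapped through NTG mouse 10, and the log2 difference was 0.38 (unadjusted p = 0.0405, adjusted p = 0.238), or 0.34 without mouse 16 (unadjusted p = 0.0707). Over the 9 omissions of 1 mouse the log2 difference of Cacna2d4 ran from 0.27 to 0.57 with an unadjusted p of at most 0.116, under 0.05 without NTG mouse 10 (adjusted p = 0.0477) or APP/PS1 mouse 18 and above it without any of the other 7. Cacna2d2, a gene of cerebellum and interneurons, stood at 63.2, 54.7, 55.7 and 60.1 CPM in NTG and 69.1, 59.8, 67.4, 61.2 and 70.0 CPM in APP/PS1 mice given CP2, a log2 difference of 0.16 (adjusted p = 0.169) with overlap. None of the 4 cytoplasmic beta genes was called in any comparison by edgeR with all mice, and their log2 fold changes lay between -0.13 and 0.05. Without NTG mouse 7, Cacnb3 passed on the adjusted p in CP2-treated APP/PS1 against NTG mice. For Cacnb4, 16% of exon bases are shared with a gene on the opposite strand.

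In the gamma family, Cacng7 fell and Cacng2 was lower in APP/PS1 mice. Cacng7 encodes TARP gamma-7, an AMPA receptor partner, and lies at chr7:3332955-3368216 on the plus strand, beside its relatives Cacng8 and Cacng6. Its RefSeq promoter is shown as that of the other adjusted call whose window lies outside exons. The 250 bases before its RefSeq start, chr7:3332575-3332824 on the plus strand of GRCm38.p6, held 1 GC box and 1 CCAAT box, in capitals, after a long run of C and T.
Cacng7: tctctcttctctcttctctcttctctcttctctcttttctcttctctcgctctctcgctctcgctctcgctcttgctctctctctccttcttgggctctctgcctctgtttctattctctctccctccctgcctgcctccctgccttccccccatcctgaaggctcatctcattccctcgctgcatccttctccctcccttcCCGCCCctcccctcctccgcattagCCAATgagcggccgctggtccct

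The Cacng7 window had a GC content of 58.0%. Cacng7 stood at 142, 143, 144 and 139 CPM in NTG mice, at 126, 124, 133, 131 and 125 CPM in APP/PS1 mice and at 133, 134, 139.9, 126 and 123 CPM in APP/PS1 mice given CP2. The NTG mice lay close together and above all APP/PS1 mice in TMM-scaled CPM, and CP2-treated mouse 23 reached into the NTG range. In the deposited RPKM, APP/PS1 mouse 18 (51.7 RPKM) lay within the NTG range (50.1 to 52.7 RPKM). Cacng7 changed by -0.15 ± 0.04 (log2), or 10.1% less (adjusted p = 0.0469), in APP/PS1 against NTG mice, 0.04 with CP2 and -0.11 ± 0.04 (adjusted p = 0.164) in CP2-treated APP/PS1 against NTG mice. The adjusted p in the first comparison was 0.0783 with upper-quartile scaling, 0.111 without a filter, 0.0543 with a minimum of 10 counts and 0.0486 without mouse 16, and leaving out any of the other 8 mice brought it above 0.05, at most to 0.143.

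Cacng2 encodes stargazin, the founding TARP, which carries AMPA receptors to synapses. It stood at 77.0, 81.9, 78.4 and 81.5 CPM in NTG mice, at 74.8, 64.5, 75.9, 70.7 and 70.2 CPM in APP/PS1 mice and at 80.1, 74.0, 79.2, 78.1 and 76.7 CPM in APP/PS1 mice given CP2. The APP/PS1 mice all lay below the NTG mice in TMM-scaled CPM, and the CP2-treated mice overlapped both groups. In the deposited RPKM, APP/PS1 mouse 18 (11.8 RPKM) lay within the NTG range (11.3 to 12.3 RPKM). In APP/PS1 mice Cacng2 differed by -0.16 ± 0.05 (log2) from NTG (unadjusted p = 0.0126, adjusted p = 0.126) and 0.12 ± 0.05 with CP2 (unadjusted p = 0.0305, adjusted p = 0.744). With CP2 the unadjusted call was lost without any 1 of APP/PS1 mice 17, 19 or 20 or CP2-treated mice 21, 23 or 24. Its unadjusted p was at most 0.0868 when 1 mouse was left out. In APP/PS1 against NTG mice it reached 0.0513 in 1 such fit. An antisense gene shares 5.86% of its exon bases. Cacng8, with a log2 fold change of -0.11 ± 0.09 in APP/PS1 against NTG mice, and Cacng3, with 0.14, were not called by edgeR with all mice. Limma-voom gave Cacng8 an unadjusted p under 0.05 in CP2-treated APP/PS1 against NTG mice.

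Of the HCN channels, Hcn4 was higher with CP2 by unadjusted p. Hcn4, the slow form known from the sinoatrial node and thalamus, stood at 7.23, 7.86, 7.56 and 11.98 CPM in NTG mice, at 4.13, 7.28, 6.83, 7.08 and 7.52 CPM in APP/PS1 mice and at 7.39, 9.32, 10.8, 9.67 and 8.74 CPM in APP/PS1 mice given CP2. CP2-treated mouse 21 overlapped the APP/PS1 mice and the other 4 lay above them. The log2 fold change with CP2 was 0.48 ± 0.16 (unadjusted p = 0.0108, adjusted p = 0.744), and 0.36 ± 0.10 without mouse 16, which was lowest (unadjusted p = 0.00553). The thalamic marker sums given for Cacna1g stand beside Hcn4 as well, and their part was not tested.

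Hcn2, the most abundant HCN gene, changed by -0.05 ± 0.13 in APP/PS1 against NTG mice, and its values split within the APP/PS1 group into 130.2, 130.3 and 132 CPM in mice 16, 17 and 20 and 187 and 189 CPM in mice 18 and 19. Hcn3, of whose exon bases 17.1% are shared with an opposite gene, was not called by edgeR with all mice. Nalcn changed by -0.01 ± 0.07 in APP/PS1 against NTG mice and by 0.07 with CP2.

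**Figure D3:**
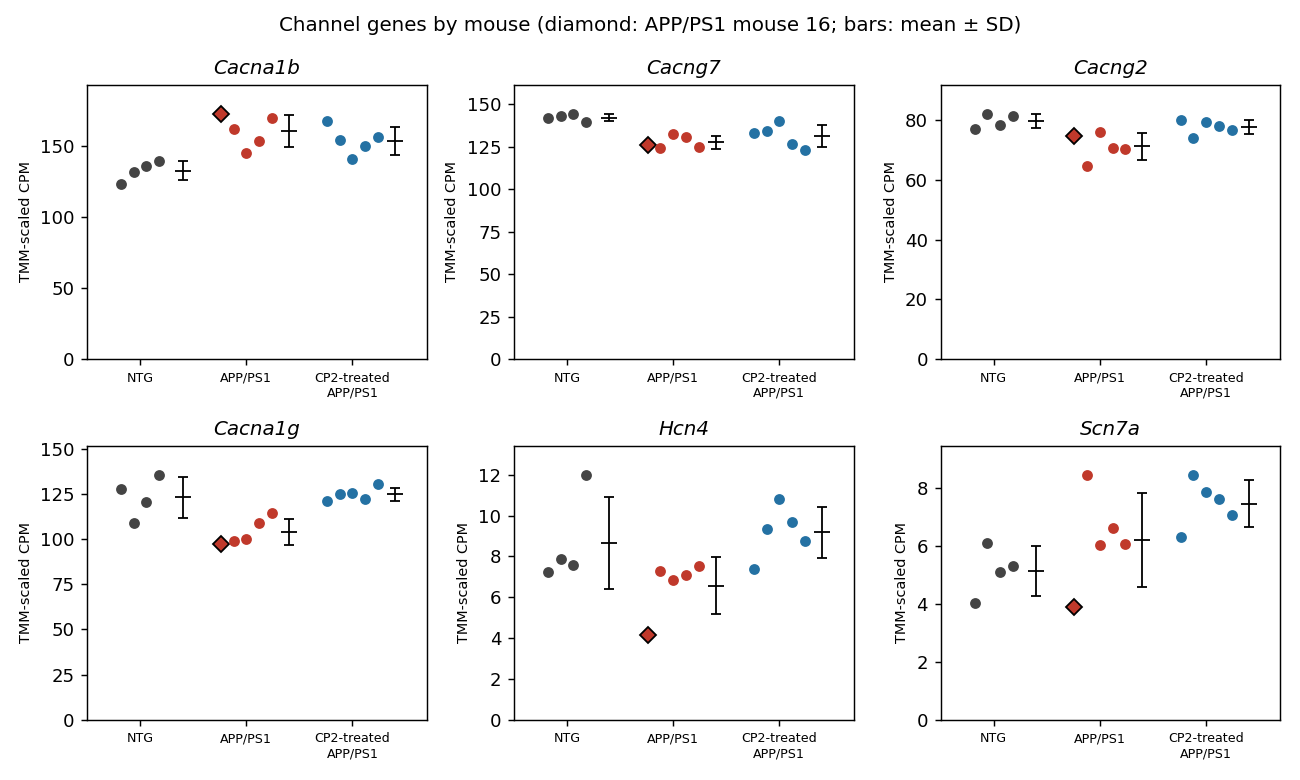
TMM-scaled CPM of 6 channel genes in each mouse, by group, with the mean ± SD of each group beside its points (4 NTG, 5 APP/PS1 and 5 CP2-treated APP/PS1 mice) and axes that start at 0. The Cacna1b values of all transgenic mice lie above 139 CPM, the highest NTG value, and the CP2-treated mice lie above the APP/PS1 mice for Cacna1g, from 121 CPM upwards.

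The tissue of the transgenic mice differed in its cell type markers as well, and in bulk tissue fewer cells of a type and less RNA per cell cannot be told apart. In APP/PS1 against NTG mice all 6 microglial markers rose by adjusted p, with sums of 239 to 252 CPM in NTG and 431 to 623 CPM in APP/PS1 mice. Of the 7 dentate gyrus markers 4 were lower by unadjusted p, with sums of 151 to 211 and 138 to 174 CPM. The sum of 174 CPM was that of mouse 16 and mostly Pdzd2, a marker that differed by 0.38 on the log2 scale without being called. Fold changes of the markers without mouse 16 are not given. Of the 8 general neuronal markers 1 was lower by unadjusted p, with sums of 5708 to 6183 and 5285 to 5847 CPM. Astrocyte markers summed to 3826 to 4584 CPM in NTG and 3332 to 3810 CPM in APP/PS1 mice, and 3 of the 6 were lower by unadjusted p. Most of that sum was Slc1a2, with means of 3159 and 2376 CPM, and the log2 differences of Aqp4, Slc1a3 and Aldh1l1, none of them called, were 0.52, 0.08 and 0.03. The part of these shifts in the lower values of Cacng7 and Cacng2 and the higher values of Cacna1b was not tested.

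Mouse 16 lay outside the spread of the other mice for many channel genes. Of the 37 tested, 22 lay outside the range of the other 13 mice in this library, 16 above and 6 below. The same share over all genes was not counted, so these counts show nothing particular to channel genes. The highest excess was that of Scn4b, 4.38 times the median of the other mice, and Cacng4 was at 1.90 times and Cacna2d3 at 1.69 times. The 6 genes below the range were Hcn4, Scn7a, Scn1a, Cacna1g, Cacna2d1 and Hcn2, and Hcn4 was at 0.546 times the median. Cacng7 and Cacng2 lay inside the range.

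**Figure D4:**
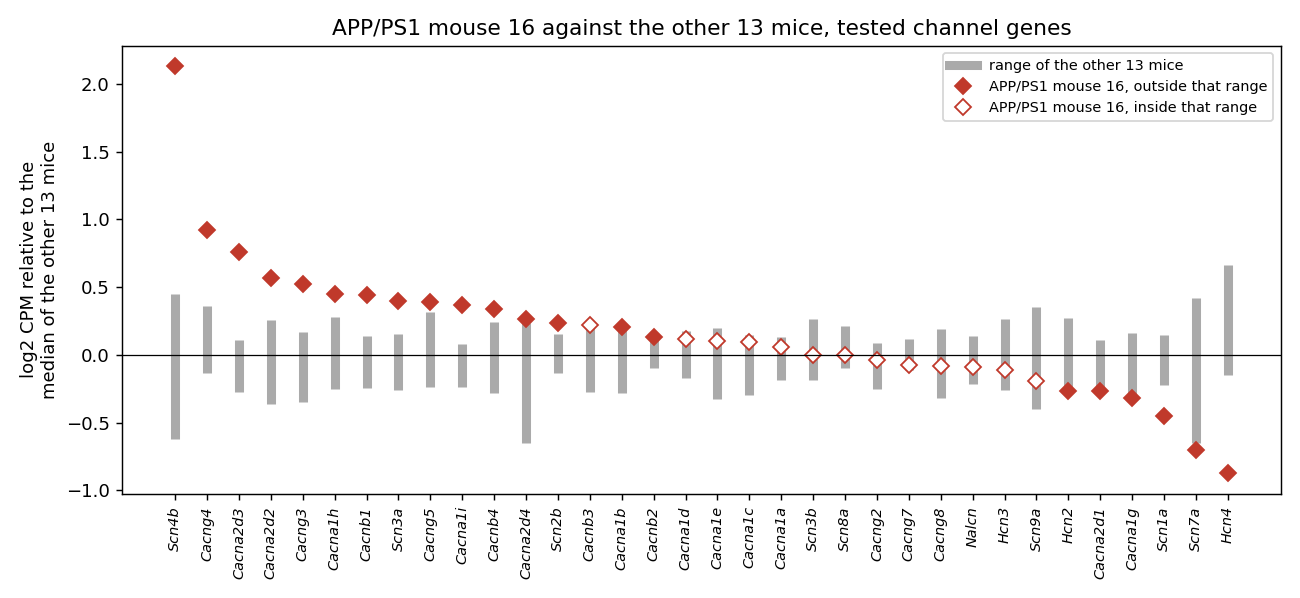
CPM of 34 of the 37 tested channel genes in APP/PS1 mouse 16 (diamonds) on a log2 scale relative to the median of the other 13 mice, with grey bars for the range of those mice. Filled diamonds lie outside the range, 15 above and 6 below, with Scn4b at the top and Hcn4 at the bottom. The share of all genes outside the range was not counted.

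Genes whose products bind these channels were followed as lists. Of 15 sodium channel and axon initial segment partners, such as ankyrin-G and the FGF homologous factors, none was called by adjusted p. The lowest p in the list belonged to Fgf13 in APP/PS1 against NTG mice (-0.29 ± 0.10, unadjusted p = 0.0200) and with CP2 (0.18 ± 0.07, unadjusted p = 0.0260), and to Nfasc, which encodes neurofascin, in CP2-treated APP/PS1 against NTG mice (0.17 ± 0.05, unadjusted p = 0.00930).

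Of the 14 calcium channel partners tested, 2 were called by adjusted p in APP/PS1 against NTG mice, 3 in CP2-treated APP/PS1 against NTG mice and none with CP2. The shares of all genes were 5.68%, 6.02% and 0.00609%. By unadjusted p, 2 partners were higher and 1 lower in APP/PS1 against NTG mice, beside 18.7% of all genes. In CP2-treated APP/PS1 against NTG mice 4 were higher and 3 lower, beside 20.2%. Calm3, 1 of the calmodulin genes, fell by 0.24 on the log2 scale in APP/PS1 mice (adjusted p = 0.0242) and by 0.21 in CP2-treated APP/PS1 mice (adjusted p = 0.0372). Rrad, a small GTPase that restrains calcium channels, rose by 0.65 ± 0.16 (adjusted p = 0.0371) and 0.78 ± 0.17 (adjusted p = 0.0207). Its level was near the filter, at 0.923 to 1.52 CPM in NTG, 1.66 to 2.14 CPM in APP/PS1 and 1.65 to 2.50 CPM in CP2-treated mice. With NTG mouse 8 below 1 CPM, Rrad entered these tests only through the transgenic groups, where it was higher. Rims1, an active zone scaffold that tethers presynaptic channels, rose by 0.34 ± 0.05 in CP2-treated APP/PS1 against NTG mice (adjusted p = 0.00294).

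Of the 3 HCN partners tested, Flna, which encodes filamin A and is also expressed by vessel and immune cells, rose in APP/PS1 against NTG mice by 0.27 ± 0.06 (adjusted p = 0.0241). Pex5l, which encodes TRIP8b, the main auxiliary subunit of HCN channels in dendrites, changed by -0.22 ± 0.08 (unadjusted p = 0.0213, adjusted p = 0.170), and the groups did not overlap. Of the NALCN complex 3 genes were tested, and Unc80 was higher with CP2 by 0.18 ± 0.06 (unadjusted p = 0.00765, adjusted p = 0.744).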

How the data were processed

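Libraries were made from total RNA with the TruSeq RNA kit v2, which does not mark strand. The authors aligned the reads to mm10 with TopHat and deposited counts per Ensembl gene from featureCounts, with reads over overlapping genes counted for each, and RPKM values made from them; versions are not given in the labels. The counts were tested here as deposited with edgeR 4.0.16 (R 4.3.3), with TMM scaling, a quasi-likelihood fit for each pair of groups, and Benjamini-Hochberg adjustment over all genes with a CPM above 1 in all mice of either group. SE denotes the standard error of that fit. CPM values are scaled by TMM over all 14 mice. Levels between genes are given as the deposited RPKM.

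Replicates are single mice. Over the 26 pairs of mice within a group, the lowest chi-square per degree of freedom was 9.87, so no pair was 1 library deposited in duplicate. DESeq2 1.42.0, limma 3.58.1 (voom with quality weights), other scaling and filters, all 3 groups in 1 fit and leaving out each mouse were tried as alternatives. Promoters were read from RefSeq (GRCm38.p6), and gene models from GENCODE vM21, in which 31 of the 44 genes have the deposited ends. The scripts were tested on simulated counts. Rows like ribosomal RNA took 2.40 to 7.50% of counts. The genes and marker lists were chosen with earlier results of these data known. Named are the channel genes called or free of overlap in any comparison, up to 3 highest of each subfamily and those below the filter, and partners called by adjusted p or with the lowest p of their list; Scn4b, Cacna1c, Cacna1d, Cacna1h, Cacna1i, Cacnb2, Cacng4, Cacng5 and Scn2a1 are named beyond this rule, after their values were seen. Some single genes are not reported here and are left out of the figures, but they remain in every count and fit. The study itself used DESeq2.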

Additional observations from a re-analysis of the deposited data

Results flagged for a closer look

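In 9 of 111 sets of values (37 channel genes in 3 groups) 1 mouse lay far from the rest of its group by Dixon's test at the 95% level; chance alone flags about 1 in 20. Mouse 16 gave 5 of the 9, all in the APP/PS1 group. It was high for Scn4b (436 CPM, against 64.7 to 125 in the other 4 mice), Cacna2d3 (127 CPM, against 62.2 to 75.7), Cacng4 (46.7 CPM, against 22.5 to 25.3) and Scn3a (65.8 CPM, against 43.3 to 49.6), and low for Hcn4 (4.13 CPM, against 6.83 to 7.52). NTG mouse 10 was high for Hcn4 (11.98 CPM, against 7.23 to 7.86) and Cacng4 (31.6 CPM, against 22.69 to 22.72). NTG mouse 9 was high for Cacna1d (56.5 CPM, against 51.4 to 51.9), and CP2-treated mouse 23 for Scn4b (119.5 CPM, against 99.1 to 103).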

How the results depend on the processing

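The median library held about 86526928 counts. Whether depth or the spread between the 4 or 5 mice of a group limited the results was not tested. For APP/PS1 against NTG mice the 3 adjusted calls became 5 with DESeq2 (beside 10.2% of all genes, against 5.68%), 0 without a filter on low counts (2.89%) and 0 to 3 without 1 mouse (3.51 to 8.92%). With CP2 the 3 unadjusted calls became 5 with DESeq2 (7.71% of all genes, against 6.55%), with limma-voom (8.29%) and with all 3 groups in 1 fit (7.17%). Without 1 mouse they became 2 to 9, beside 3.9 to 9.54% of all genes. The adjusted count became 1 with DESeq2 (0.140%). The count of genes without overlap was 1 to 4 without 1 mouse. For CP2-treated APP/PS1 against NTG mice the 2 adjusted calls became 4 with DESeq2 (10.2%, against 6.02%), 1 without a filter (2.67%), 1 with at least 10 counts in every mouse (4.85%) and 0 with all 3 groups in 1 fit (4.28%). Without 1 mouse they became 0 to 3 (3.47 to 6.8%), and the 9 unadjusted calls became 6 to 15 (16.7 to 22.2%). The 2 genes without overlap became 2 to 8 without 1 mouse. The share of all genes without overlap was not counted when a mouse was left out. The cause of these changes in the counts was not tested. Fits without 1 mouse also held fewer mice. Among the fold changes followed (channel genes called by unadjusted p, and Scn4b), only Scn4b changed sign: limma-voom gave -0.027, 0.096 and 0.071 in the 3 comparisons, and leaving out 1 mouse -0.22 to 0.80, -0.82 to 0.21 and -0.078 to 0.145. In CPM per kilobase the channel genes were 1.18 to 1.25 times their RPKM, with the same order in each subfamily. No paired analysis was possible because no mouse number occurs in more than 1 group.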
